A study of Mus musculus with 9 samples.

Results

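Gpm6b and Gpm6a encode proteolipid membrane glycoproteins, and they are 2 of the 18272 genes in the deposited tibia table. They were taken by symbol across all 9 libraries, as Gpm6b (gene number 14758) and Gpm6a (gene number 234267). Gpm6b was selected on measured values, because its level was higher in untreated diabetic tibias than in the other tibias. Its values in these contrasts are therefore given as a description, with no test read from them. Gpm6a was not used by the selection. Treated diabetic and normal tibias were not contrasted with each other by the selection, although it favoured genes that are low in both. Both genes passed the filter on low counts, which kept the 13960 genes that reached 10 counts in 3 or more libraries.

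RNA was sequenced from the tibia of female C57BL/6J mice, bought at an age of 10 to 11 weeks, with 1 library for each of 3 mice per group. NGT mice had normal glucose tolerance and received the vehicle of streptozotocin and then saline. T1D mice received streptozotocin, a toxin of pancreatic beta cells that gives a chemical model of type 1 diabetes, and then saline. Lira mice received streptozotocin and, starting 2 weeks later, daily liraglutide, a long-acting GLP-1 analogue, for 8 weeks at 0.6 mg/kg/day, although the label of Lira mouse 3 gives 9 weeks. The labels name no transgene or deletion in any group. Library totals were 13086373 to 14486754 counts in NGT, 14765784 to 16528394 in T1D and 14166824 to 15527097 in Lira mice. T1D mouse 1 stood apart by high bone matrix and macrophage markers and T1D mouse 2 by high myelin markers, so medians of gene lists that rest on either are also given without it.

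Both proteins cross the membrane several times and sit in cholesterol-rich patches of the cell surface. Gpm6a is best known from neurons, where it promotes the growth of filopodia and neurites. Gpm6b is made by neurons and by myelinating glia, has been described in osteoblasts as a regulator of the cytoskeleton and of mineral-bearing vesicles, and binds the serotonin transporter, the product of Slc6a4. In whole bone these sources are read together, and more cells of a type cannot be told apart from more RNA per cell.

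The sequence just before the transcription start is shown for both genes because its base composition differs between them. RefSeq gives 1 start for Gpm6b and 2 for Gpm6a in build GRCm38.p6, and its windows matched 13982 of the 18272 genes by symbol. Each stretch holds the 250 bases before the start, on the plus strand and outside the transcript, and capitals mark the motifs found. The Gpm6b stretch lies at chrX:166238693-166238942, and the Gpm6a stretches at chr8:54779184-54779433 and chr8:54954478-54954727.
Gpm6b: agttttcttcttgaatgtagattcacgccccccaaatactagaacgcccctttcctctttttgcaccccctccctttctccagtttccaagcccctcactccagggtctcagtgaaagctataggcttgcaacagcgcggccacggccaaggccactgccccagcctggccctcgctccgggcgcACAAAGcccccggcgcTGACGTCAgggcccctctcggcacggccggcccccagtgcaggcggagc
Gpm6a, first start: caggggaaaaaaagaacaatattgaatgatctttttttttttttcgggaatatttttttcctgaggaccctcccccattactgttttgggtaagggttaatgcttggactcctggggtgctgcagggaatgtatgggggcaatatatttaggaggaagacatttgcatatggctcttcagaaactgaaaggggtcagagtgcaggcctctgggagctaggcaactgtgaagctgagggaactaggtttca
Gpm6a, second start: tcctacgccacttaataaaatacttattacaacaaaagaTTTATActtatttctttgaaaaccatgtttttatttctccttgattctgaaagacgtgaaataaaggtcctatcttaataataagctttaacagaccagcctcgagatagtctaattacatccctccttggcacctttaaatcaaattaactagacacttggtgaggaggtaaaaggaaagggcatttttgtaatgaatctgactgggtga
The Gpm6b stretch is 63.2% G and C with 15 CG pairs, against 44.4% with 1 CG pair and 33.6% with 3 CG pairs for Gpm6a, and the median over 32851 RefSeq windows of the same length was 52.4%.

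The motifs were chosen with these sequences in view, and both strands were searched. The cAMP response element TGACGTCA, which is its own reverse complement, spanned positions -49 to -42 of Gpm6b, where -1 is the last base before the start, and is held by 1.55% of all windows. The SOX motif ACAAAG spanned positions -65 to -60 and is held by 16.5% of windows. In the second Gpm6a stretch the motif TATAAA was read on the minus strand, as TTTATA, at positions -211 to -206, and 12.4% of windows hold it. No match was found in these 3 stretches for the RUNX motif TGTGGT, which 14.0% of all windows hold, for the other SOX motif ACAATG (10.7%), for the GC box GGGCGG (32.7%) or for the CCAAT box (33.8%). A match describes letters in these windows only.

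Gpm6b was lower in each NGT and Lira tibia than in any of the 3 T1D tibias, which differed widely among themselves. In CPM (counts scaled to a common library total, with TMM factors), it was at 6.16, 7.19 and 6.41 in NGT mice 1 to 3. It was at 27.3, 22.6 and 10.3 in T1D mice 1 to 3 and at 5.50, 6.39 and 5.85 in Lira mice 1 to 3. T1D mice 1 and 2 were far above all other mice, and T1D mouse 3 stood just above them. Behind these levels were 77 to 102 expected counts in each of the 6 NGT and Lira libraries, and 503, 345 and 155 counts in the T1D libraries. The 95% Poisson interval of T1D mouse 3 was 8.76 to 12.1 CPM and touched that of the highest other library, NGT mouse 2, which reached 8.81. These intervals cover counting error only.

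The group means of Gpm6b were 6.59 ± 0.540 CPM in NGT, 20.1 ± 8.77 in T1D and 5.91 ± 0.448 in Lira mice (SD, n = 3 each). The mean level in T1D mice was 3.05 times that in NGT mice and 3.40 times that in Lira mice. On the log2 scale the fitted difference was 1.61 (standard error 0.33) for T1D against NGT and -1.76 (0.33) for Lira against T1D. With T1D mouse 3 as the single T1D library, the differences were 0.63 and -0.80, so their size rested on T1D mice 1 and 2. The direction was shared by all 3, which the selection for high T1D levels favoured. The lowest T1D level was 1.44 times the highest level among the other 6 libraries. Over all genes, every T1D library was above all 6 others for 138 of 13960 (0.989%), and a gap at least as wide as that of Gpm6b was seen in 5, namely Gm8210, Colec11, Sdk1, Maged2 and Gpm6b itself, listed after their values were seen. Since Gpm6b was selected on this contrast, nothing is read from these shares.

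**Figure D1:**
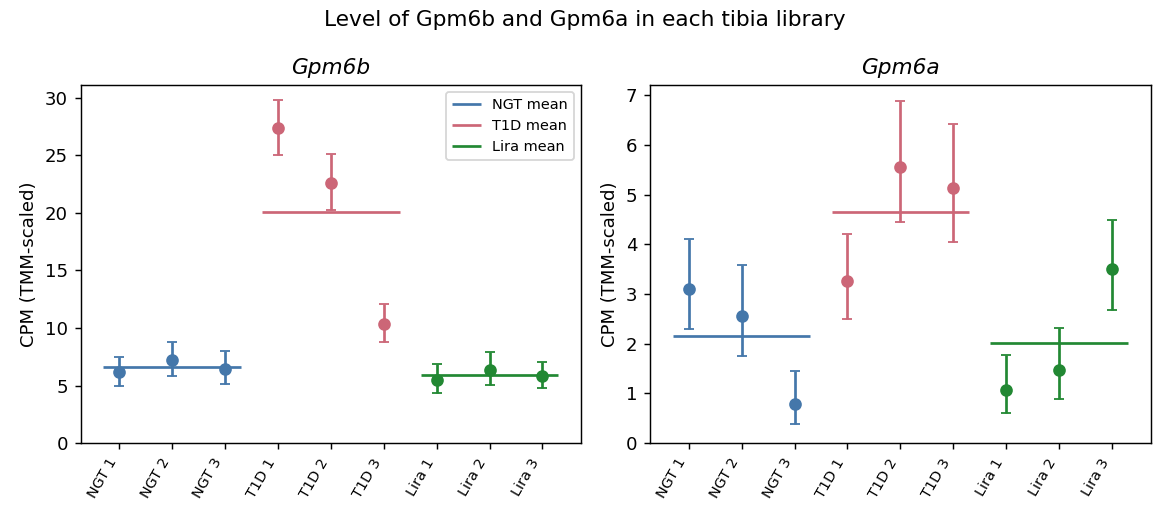
Level of Gpm6b and Gpm6a in each library, in TMM-scaled CPM on linear axes that start at 0 and differ between panels; points are single mice, bars their 95% Poisson intervals (counting error only) and horizontal lines the group means. Gpm6b is at 5.50 to 7.19 CPM in the 6 NGT and Lira libraries and at 10.3 to 27.3 in the 3 T1D libraries, and Gpm6a overlaps between T1D and Lira.

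NGT and Lira mice, which the selection did not contrast with each other, had overlapping Gpm6b levels. The selection favoured low levels in both groups, so the tests of this difference are not independent of it. The log2 difference of Lira against NGT was -0.16 (standard error 0.33, 95% interval -0.90 to 0.59, edgeR quasi-likelihood test, adjusted p = 0.999). In an exact two-sided permutation test over the mice, p was 0.2, where 3 against 3 can reach no p under 0.1. A p that misses the threshold does not show that the levels were equal. Over these 6 libraries the coefficient of variation of Gpm6b was 9.24%, where counting error alone would give 10.7%. A gene chosen for standing higher in T1D mice than in these 6 libraries is likely to be steady in them, so nothing is read from that value. Gpm6a, which was not selected on its values, varied by 54.0% over the same libraries, where 62.2% of the 1316 genes within 1.5-fold of its mean level varied less. In T1D mice the coefficient of variation of Gpm6b was 43.7%.

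Gpm6a was the scarcer gene and did not pass the test in any comparison. Its levels were 3.11, 2.55 and 0.792 CPM in NGT mice 1 to 3, from 49, 33 and 10 counts. T1D mice 1 to 3 stood at 3.26, 5.57 and 5.14 CPM, from 60, 85 and 77 counts. Lira mice 1 to 3 stood at 1.07, 1.48 and 3.50 CPM, from 15, 19 and 61 counts. The T1D libraries were all above the NGT libraries, but T1D mouse 1 exceeded NGT mouse 1 by little and lay below Lira mouse 3. Neighbours in this order, from NGT mouse 1 at 3.11 to Lira mouse 3 at 3.50, had overlapping counting intervals.

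Mean Gpm6a levels were 2.15 ± 1.21 CPM in NGT, 4.65 ± 1.22 in T1D and 2.02 ± 1.30 in Lira mice (SD, n = 3 each). T1D against NGT gave a log2 difference of 1.11 (standard error 0.60, 95% interval -0.25 to 2.46, edgeR adjusted p = 0.977). It was 0.71 without NGT mouse 3, 1.47 without NGT mouse 1 and 0.60 in limma on log2(FPKM + 1). The exact permutation p was 0.1, the smallest that free shuffling of 3 against 3 allows. Within same-numbered pairs, a pairing that the labels do not give, it was 0.25, the smallest for 3 pairs. Every T1D library was above every NGT library for 3.52% of all genes. Lira against T1D gave -1.19 (standard error 0.60, 95% interval -2.55 to 0.16, edgeR adjusted p = 0.978; exact permutation p = 0.2), and -1.86 without Lira mouse 3. Every Lira library was below every T1D library for 3.4% of all genes, which held for Gpm6b and not for Gpm6a. Lira against NGT gave -0.09 (standard error 0.60, 95% interval -1.45 to 1.27, edgeR adjusted p = 0.999; exact permutation p = 1.0). That last difference was -0.76 without Lira mouse 3 and changed sign in the fits without NGT mouse 1, NGT mouse 2, Lira mouse 1 or Lira mouse 2.

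No gene of the 13960 was a differentially expressed gene (DEG, adjusted p under 0.05 and fold change over 2) by edgeR in T1D against NGT, in Lira against T1D or in Lira against NGT (0% in each). At an unadjusted p under 0.05, edgeR listed 552 genes (3.95%), 465 (3.33%) and 109 (0.781%) in these comparisons. DESeq2 called 0, 1 and 0 DEGs, with 697, 620 and 155 genes at an unadjusted p under 0.05, and its 1 DEG, in Lira against T1D, was Gpm6b, which was selected on this contrast, so that nothing is read from the call. In limma on log2(FPKM + 1), 0 genes were called in each comparison, with 436, 299 and 113 at an unadjusted p under 0.05.

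On the FPKM scale, which divides by transcript length and so allows levels of different genes to be compared, Gpm6b exceeded Gpm6a in all 9 libraries. Gpm6b was at 1.63, 1.55 and 1.29 FPKM in NGT, 8.95, 5.51 and 2.28 in T1D and 1.13, 1.36 and 1.71 in Lira mice 1 to 3. Gpm6a was at 1.25, 0.76 and 0.23 FPKM in NGT, 1.36, 1.83 and 1.56 in T1D and 0.33, 0.45 and 1.31 in Lira mice 1 to 3. The ratio of Gpm6b to Gpm6a ran from 1.30 in NGT mouse 1 to 6.58 in T1D mouse 1, and the ranges of the 3 groups overlapped.

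The ratio of the deposited count to the FPKM of a gene, scaled by the library total, is given here as an implied length. This assumes that FPKM was computed from these counts with a length weighted over transcripts, and the counting tool is not named. Under that assumption a shift of reads to shorter transcripts would lower it. Gpm6b has 9 protein-coding transcripts of 2858 to 4764 bases in the GENCODE annotation used for checking, and Gpm6a has 1 of 3215 bases. The implied length of Gpm6a was 2975 to 3038 bases, below that annotated length. For Gpm6b the implied length was 4545, 4143 and 4398 bases in NGT, 3804, 4078 and 4109 in T1D and 4460, 4255 and 3823 in Lira mice 1 to 3. All T1D values were below all NGT values, while Lira mouse 3 stood just above T1D mouse 1 and below T1D mice 2 and 3.

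Mean implied lengths of Gpm6b were 4362 ± 204 bases in NGT, 3997 ± 168 in T1D and 4179 ± 325 in Lira mice (SD, n = 3 each). Lira against NGT, groups that the selection did not contrast with each other, gave an exact permutation p of 0.6. The T1D contrasts rest on the same counts and FPKM values as the selection and are given with no test. A lower value in every T1D than in every NGT library was found for 348 of the 9225 genes with at least 50 counts and an FPKM of at least 1 in each library (3.77%), and nothing is read from that share. Across the 9 libraries the implied length of Gpm6b varied by 6.28%, more than that of 95.5% of these genes. It varied by 0.690% for Gpm6a, with 1 protein-coding transcript in that GENCODE annotation, and by 22.2% for Mbp, a myelin gene with many splice forms. Which transcripts were read cannot be told from gene totals, and strand was not stated for the counting.

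**Figure D2:**
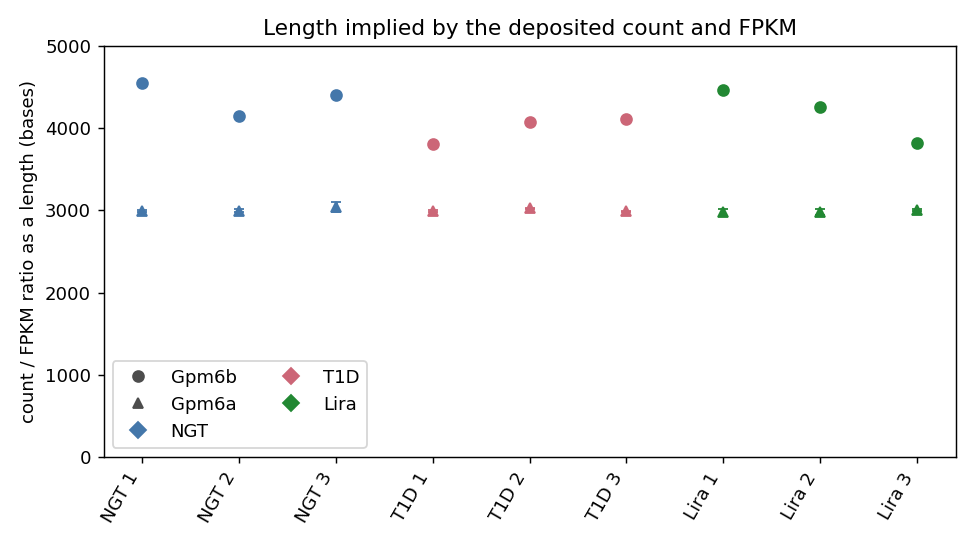
Transcript length in bases implied by the ratio of deposited count to FPKM, on a linear axis from 0, for Gpm6b (circles) and Gpm6a (triangles) in each library, coloured by group; bars show the range left by rounding of the FPKM values. Gpm6b moves between 3804 and 4545 bases, whereas Gpm6a stays between 2975 and 3038.

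Marker genes of the cells that could hold these transcripts differed widely between the T1D libraries. The myelinating Schwann cell list, of which 14 of 16 genes were tested, summed to 79.9, 223 and 53.5 CPM in NGT, 138, 761 and 141 in T1D and 119, 107 and 92.3 in Lira mice 1 to 3. All 14 genes were highest in T1D mouse 2. Mbp, which compacts the myelin sheath, was at 228 CPM there, at 17.4 in T1D mouse 1 and at 42.7 in T1D mouse 3, and at 11.2 to 71.3 in the other 6 libraries. The osteoblast and mineralization list, with 19 of 20 genes tested, summed to 1843, 462 and 1731 CPM in NGT, 6263, 1190 and 1383 in T1D and 1217, 741 and 1715 in Lira mice 1 to 3. Of its 19 genes, 16 were highest in T1D mouse 1. Col1a1, the chain of type I collagen that dominates bone matrix, was at 3208 CPM there, at 333 and 331 in T1D mice 2 and 3, and at 89.8 to 739 in the other 6.

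The T1D mice 1 and 2 with the highest Gpm6b were thus outside the range of the other libraries for different lists. T1D mouse 1 stood out for the osteoblast list and lay within the range of NGT and Lira mice for the Schwann cell list, and T1D mouse 2 the reverse. T1D mouse 3 was within the range of the 6 NGT and Lira libraries for both lists, at 10.3 CPM of Gpm6b. Single markers could differ from these sums. S100b, a calcium-binding protein of glia, is among the 13 tested genes of the non-myelinating Schwann cell and shared glial list. It was at 5.27, 11.9 and 3.60 CPM in T1D mice 1 to 3 and at 1.35 to 2.92 in the other 6 libraries. Every T1D mouse was thus above all others for S100b, which held for only 1 of these 13 genes. It held for 0 of 14 myelinating Schwann cell genes and for 0.989% of all genes. Most of the summed level of the glial list came from 1 gene, Art3, at 186 CPM in T1D mouse 3 and 126 to 299.97 in the other 6 libraries, so the sum says little of its other genes. NGT mouse 2 had the most Schwann cell markers of those 6 and the most Gpm6b, 7.19 CPM, and NGT mouse 1 the most osteoblast markers with 6.16 CPM. The part of either cell type in the Gpm6b levels was not tested.

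**Figure D3:**
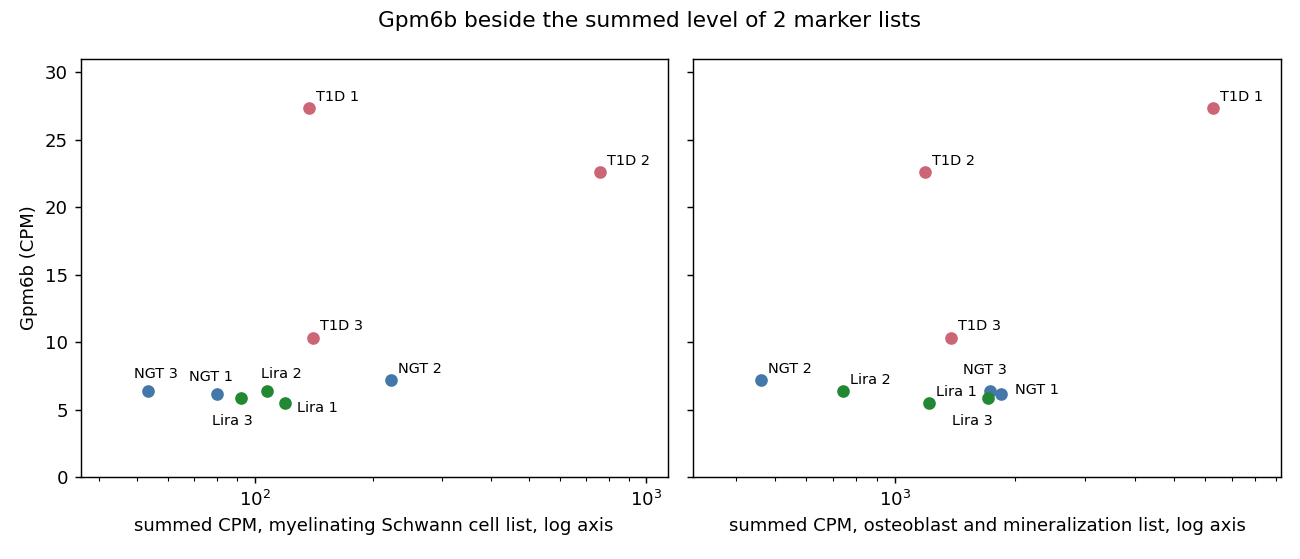
Gpm6b in CPM (linear axis from 0) against the summed CPM of the myelinating Schwann cell list and of the osteoblast and mineralization list (log axes); each point is 1 library, coloured blue for NGT, red for T1D and green for Lira. T1D mouse 2 is far right for Schwann cell markers at 761 CPM, T1D mouse 1 for osteoblast markers at 6263 CPM. T1D mouse 3 lies within the range of the other 6 libraries on both marker axes, and its higher Gpm6b level is part of what selected the gene.

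T1D mouse 1 also had the highest summed macrophage list, at 1025 CPM against 49.7 to 151 in the other 8 libraries, with 11 of 12 genes highest there, and the highest axon, osteocyte, chondrocyte and stromal lists. Of the 12 axon and neuron genes only 3 passed the filter, and the neurofilament genes Nefl, Nefm and Nefh and the growth cone gene Gap43, markers of neurons where Gpm6a is best known, were at 0 counts in at least 1 library. Uchl1, the most abundant of the 3, was at 49.7 CPM in T1D mouse 1 and at 1.82 to 18.8 elsewhere, and made up most of the axon sum there. Stmn2, a tubulin regulator of neurons, was instead highest in NGT mouse 1, at 11.3 CPM, and was at 7.72 in T1D mouse 1 and 2.07 to 5.17 elsewhere. Lira mouse 3, with the highest Gpm6a among Lira mice, had the highest osteoclast, erythroid, neutrophil and B cell sums. The erythroid and neutrophil sums were lowest in NGT mouse 2, T1D mouse 2 and Lira mouse 2, where Gpm6a was at 2.55, 5.57 and 1.48 CPM. The part of any of these cell types in the Gpm6a levels was not tested. The skeletal muscle list summed to 120678 to 323297 CPM although the bones were cleaned of muscle, and was lowest in T1D mouse 1. Of the markers of bone, Col1a1 and Col1a2 were abundant in every library, whereas Sp7, Bglap, Sost and Mepe were each at 0 counts in at least 1 library.

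For each list the median log2 difference describes its balance, beside 0.02 for T1D against NGT and 0.04 for Lira against T1D over all genes tested. The myelinating Schwann cell list had medians of 1.66 and -1.95, but without T1D mouse 2 these were -0.17 and -0.12. Its members at an unadjusted p under 0.05, chosen after their values were seen except Pmp22, were Pmp22 and Egr2 in T1D against NGT, and these with Gldn in Lira against T1D, all higher in T1D, beside 3.95% and 3.33% of all genes in either direction. The osteoblast list had medians of 0.83 and -1.0, and without T1D mouse 1 these were 0.05 and 0.12. The macrophage list had medians of 2.76 and -2.00, and without T1D mouse 1 these were 0.43 and 0.12. The axon list had 0.86 and -0.91, the osteocyte list 0.70 and -0.46 and the chondrocyte list 1.41 and -0.45, and without T1D mouse 1 these were -0.12 and 0.12, 0.11 and 0.06, and -0.14 and 0.54. The stromal list had 0.40 and -0.52 and the adipocyte list 0.50 and -0.70, and without T1D mouse 1 these were -0.23 and -0.09, and -0.49 and 0.25. In T1D against NGT the direction thus turned without T1D mouse 1 for these 5 lists except the osteocyte list. The osteoclast list had 1.18 and -0.42, or 1.14 and -0.17 without T1D mouse 1, and ran from 0.66 to 2.01 and from -1.43 to -0.11 when each mouse was left out. The non-myelinating Schwann cell and shared glial list had 0.65 and -0.53, or 0.19 and -0.07 without T1D mouse 2. The skeletal muscle list had -0.16 and 0.05 and the endothelial list -0.05 and 0.14, and without T1D mouse 1 these were 0.10 and -0.21, and 0.11 and 0.13. The neutrophil list had -0.03 and 1.10, the erythroid list 1.10 and 0.66 and the B cell list -0.30 and 1.78. Each of these 3 changed sign in both comparisons when single mice were left out, with ranges of -0.59 to 2.003, -1.25 to 2.33 and -0.85 to 1.21 in T1D against NGT. In the other cell lists, genes at an unadjusted p under 0.05 in T1D against NGT were 6 of 12 macrophage genes (C1qa, C1qb, C1qc, Cd68, Adgre1 and Trem2), each higher in T1D and highest in T1D mouse 1, and 3 of 11 osteocyte genes (Pdpn, Ackr3 and Mepe), also higher. Of 14 osteoclast genes, Ctsk and Tnfrsf11a were higher and Ostm1 lower, and 1 gene each was found in the osteoblast list (Spp1, higher), the glial list (S100b, higher) and the skeletal muscle list (Myh2, lower). Tnfrsf11a, the RANK receptor, was at 7.67, 2.10 and 2.67 CPM in T1D mice 1 to 3 and at 0.619 to 1.95 in the other 6 libraries. In Lira against T1D these genes were 2 macrophage (C1qb and C1qc), 2 osteocyte (Pdpn and Ackr3) and 1 each of the stromal (Pdgfra), glial (S100b) and osteoclast (Tnfrsf11a) lists, all lower in Lira, with Ostm1 and Myh2 higher. Those of these genes that are not among the 3 most abundant of their list were named after their values were seen. No member of any list was a DEG by edgeR in any comparison.

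**Figure D4:**
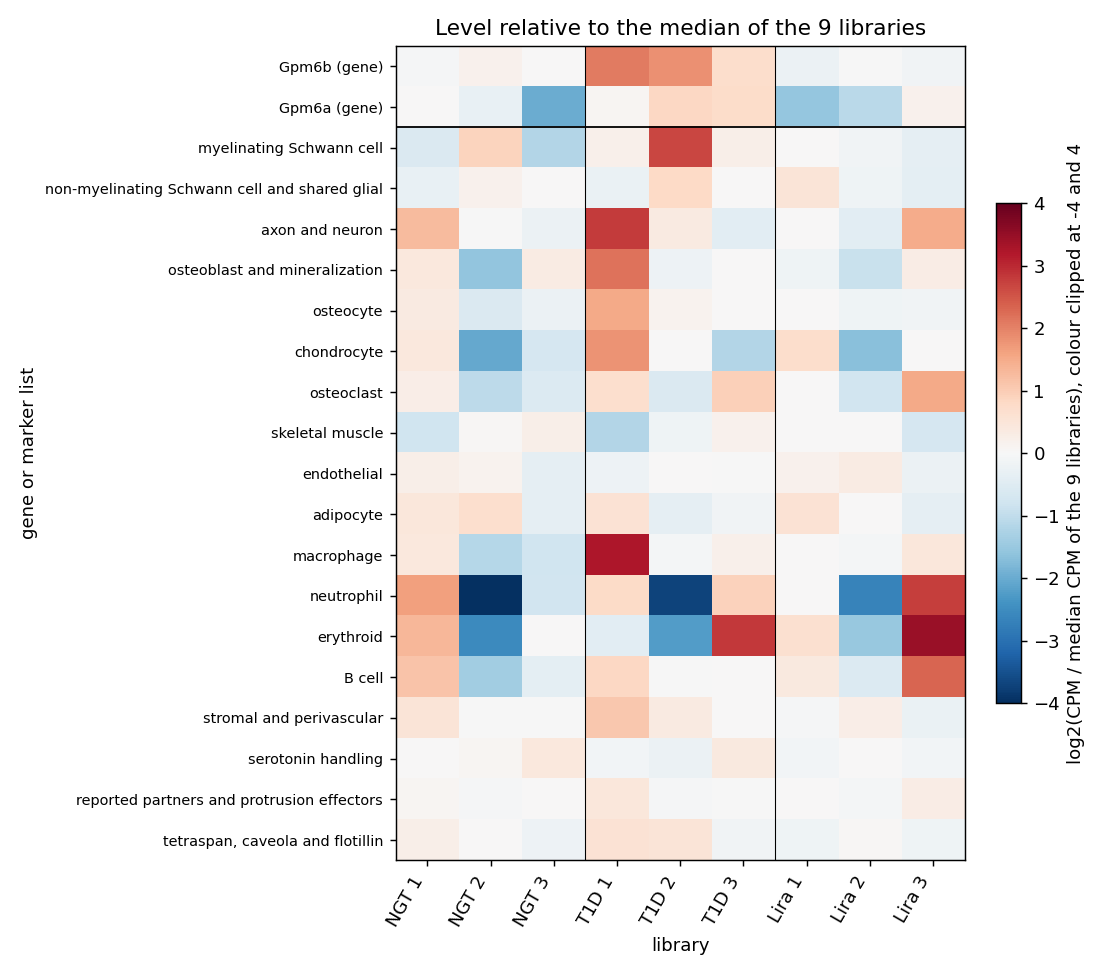
Levels of Gpm6b and Gpm6a (top rows) and summed levels of the 18 gene lists in each library, as log2 of CPM over the median of the 9 libraries (red higher, blue lower, with the colour scale clipped at both ends). The Gpm6b row is red in all 3 T1D columns, the Schwann cell row mainly in T1D mouse 2, and the osteoblast and macrophage rows mainly in T1D mouse 1.

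Molecules with which these proteins are known to act were described next. The serotonin handling list, with 6 of 15 genes tested, had medians of -0.05 for T1D against NGT and -0.23 for Lira against T1D, and 0 members at an unadjusted p under 0.05 in edgeR. Slc6a4, the serotonin transporter bound by Gpm6b, was at 4.95, 0.0773 and 1.42 CPM in NGT, 3.04, 0.524 and 2.40 in T1D and 0.500, 0.312 and 12.4 in Lira mice 1 to 3. The groups overlapped, and the log2 difference of T1D against NGT was -0.12 (standard error 1.49, edgeR adjusted p = 0.997). Maob and Maoa, which break down monoamines, and Slc18a2, the vesicular monoamine transporter, differed by -0.20, 0.03 and -0.38 in T1D against NGT, each with an edgeR adjusted p of 0.977 or more. In Lira against T1D they differed by -0.15, -0.32 and 0.48, each with an edgeR adjusted p of 0.978 or more. Maoa was at 15.8 to 16.2 CPM in Lira and 18.9 to 20.9 in T1D mice. Every Lira library was below every T1D library for 2 of the 6 genes and above for 0, beside 3.4% of all genes below.

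The list of reported partners and protrusion effectors, with 19 of 20 genes tested, had medians of 0.22 and -0.03, or -0.05 and 0.14 without T1D mouse 1. Its most abundant genes, Cfl1, which severs actin filaments, and the small GTPases Cdc42 and Rac1, differed by 0.63, 0.05 and 0.07 in T1D against NGT. Rac1, through which Gpm6a promotes filopodia, was at 237 to 301 CPM in all 9 libraries. Of the 19 genes 1 had an unadjusted p under 0.05, a share near that of all genes (3.95% in T1D against NGT and 3.33% in Lira against T1D). It was Fscn1, an actin bundler of filopodia, named after its values were seen. Fscn1 was at 11.4, 10.9 and 10.8 CPM in NGT and at 29.5, 14.5 and 12.7 in T1D mice 1 to 3, and at 8.38 to 13.3 in Lira mice. Its log2 difference was 0.78 in T1D against NGT and -0.80 in Lira against T1D (edgeR adjusted p = 0.977 and 0.978), and it was highest in T1D mouse 1.

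A list that joins tetraspan proteins with caveolins, cavin and flotillins, which are not tetraspans but share lipid-rich membrane patches, had 22 of 23 genes tested and medians of 0.40 and -0.44, which were 0.13 and -0.22 without T1D mouse 1 and 0.26 and -0.27 without T1D mouse 2. In T1D against NGT, 20 of 22 differences were above 0, beside 7272 of 13960 over all genes. Pmp22, a myelin tetraspan that also belongs to the Schwann cell list, was at 41.1, 65.5 and 19.9 CPM in NGT, 86.3, 250.4 and 46.0 in T1D and 44.2, 43.1 and 28.4 in Lira mice 1 to 3. Its log2 difference was 1.60 (standard error 0.63, edgeR adjusted p = 0.977) in T1D against NGT, with the lowest T1D mouse below the highest NGT mouse, and 0.65 without T1D mouse 2. Cav1 and Cavin1, which build caveolae, differed by -0.02 and 0.18.

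Genes whose profile was most like that of Gpm6b were ranked by Pearson's r of log2 CPM over the 9 libraries among 13127 genes of at least 1 CPM on average. These values share libraries and depth, and Gpm6b falls into separate groups of libraries, so r is a description of likeness only. The 10 genes were Gulp1 (r = 0.929), Matn2 (0.925), Ntan1 (0.916), Chl1 (0.913), Zfp277 (0.910), Cst3 (0.908), Commd2 (0.907), Plscr4 (0.906), Lrrc17 (0.900) and Use1 (0.896). Gulp1 encodes an adaptor for the engulfment of dying cells, Matn2 a matrix protein, Chl1 a neural adhesion molecule and Cst3 the secreted protease inhibitor cystatin C. Gulp1 was at 5.46, 4.72 and 4.83 CPM in NGT, 8.26, 11.1 and 6.14 in T1D and 4.64, 5.14 and 4.48 in Lira mice 1 to 3. Chl1 was at 0.635, 1.55 and 0.554 CPM in NGT, 3.59, 3.40 and 1.27 in T1D and 0.785, 1.25 and 0.574 in Lira mice 1 to 3, so that T1D mouse 3 did not exceed NGT mouse 2.

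In 5 of the 10, every T1D library was above all 6 others, beside 0.989% of all genes. The 10 were chosen for likeness to Gpm6b, which was itself selected for high T1D levels, so this count follows in part from the choice. The T1D mean was 3.09 times the mean of the other 6 for Chl1, 2.76 times for Matn2, 2.07 times for Lrrc17 and 1.74 times for Gulp1, and 1.14 to 1.51 times for the remaining 6. Only 1 of the 10 was also among the 10 genes of highest Spearman correlation, and leaving out 1 mouse kept between 1 and 8 of them. For Gpm6a the 5 genes were Gnb1l (r = 0.928), Slc38a6 (0.924), Shf (0.915), Gatm (0.892) and Tmem255a (0.886), none of which was among those of Gpm6b. Between Gpm6b and Gpm6a themselves, r over the 9 libraries was 0.573.

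**Figure D5:**
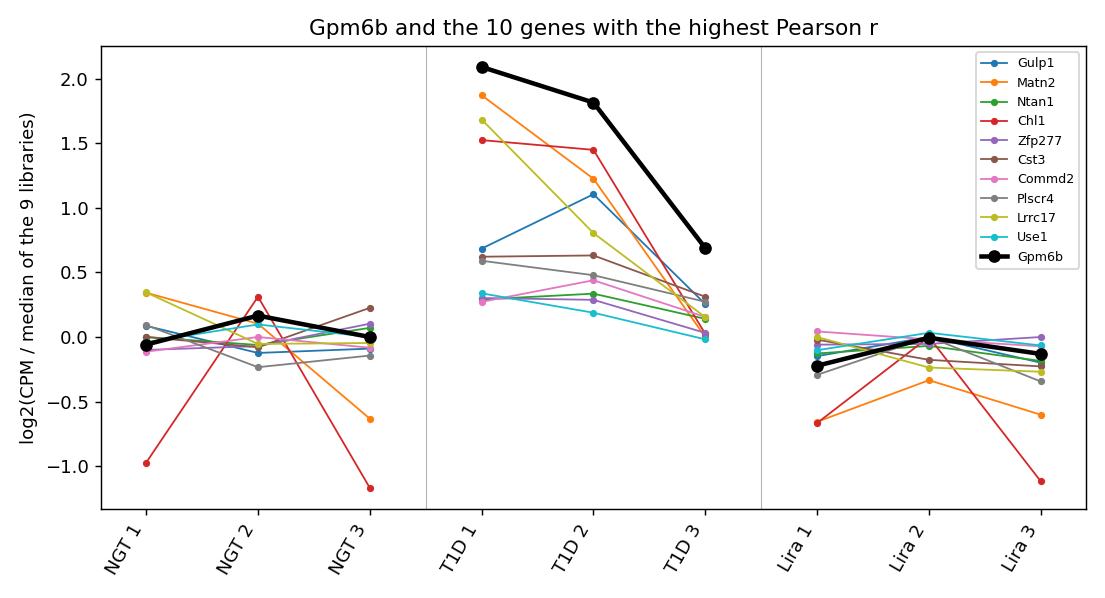
Gpm6b (thick black line) and the 10 genes of highest Pearson r with it, as log2 of CPM over each gene's median of the 9 libraries; points are libraries, and lines join the mice of a group only to guide the eye. Gpm6b has the highest values of all in each T1D library, and the other genes differ in whether T1D mouse 3 lies above the NGT and Lira libraries.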

How the data were processed

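RNA from the tibia of 9 mice (3 NGT, 3 T1D and 3 Lira) was sequenced after oligo(dT) enrichment, with 1 library per mouse. After alignment of the cleaned reads, the authors deposited gene-level expected counts without normalization, of which 30.2% are not whole (tolerance 1e-06), and FPKM values, which the authors scaled for transcript length and library total. The submitters' processing notes name the build mm9. Aligner, counting tool and strand setting are not given in the sources used here. The deposited table holds no coordinates, and those printed belong to RefSeq's GRCm38.p6. Groups were taken from the sample labels, with 0 columns unmatched.

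After rounding, genes that reached 10 counts in 3 or more libraries were fitted in R 4.3.3 with edgeR 4.0.16 (TMM, glmQLFit and glmQLFTest, 3 group means over 9 libraries), and p-values were adjusted by Benjamini-Hochberg over 13960 genes. DEGs had an adjusted p under 0.05 and a fold change over 2. The common biological coefficient of variation was 0.433. Levels are CPM with TMM scaling, and log2 CPM used a prior count of 2. The limit set by 3 counts was 0.163 to 0.237 CPM per library. Single values were compared by exact two-sided permutation over the mice (Python 3.11.15, scipy 1.17.1). On simulated data with 200 of 13960 genes changed, T1D against NGT recovered 109 genes at 4-fold and 179 at 16-fold, and Lira against T1D recovered 101 and 182. The simulation drew genes independently, without the shifts that many genes share within a mouse here. It therefore does not tell how many real changes of this size would be found.

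The members, the 18 gene lists and the tests were chosen with earlier results of these data known. Named genes were Gpm6b, Gpm6a, Slc6a4, up to 3 genes of highest mean FPKM per list, and the 10 and 5 genes most like Gpm6b and Gpm6a; others are said to be chosen after their values were seen. Replicates differed by more than sampling noise (chi-square per degree of freedom 54.6 to 248). The labels and methods give no pairing of mice between groups. Deviations from group means of same-numbered mice correlated at 0.283 to 0.647 between NGT and T1D, each over 0.1. Pairs by number were therefore used in alternatives only, and whether the mice were paired was not tested. Between Lira and T1D these deviations correlated at -0.244 to 0.615 and between Lira and NGT at -0.173 to 0.727, and these were not taken as pairs. Mice of unlike number reached 0.780 between Lira and NGT. Alternatives were DESeq2 1.42.0, its size factors in edgeR, library size only, no filter, fits of the 2 groups compared, the replicate block, the robust option, no fold threshold, limma 3.58.1 on log2(FPKM + 1) and log2(FPKM + 0.1), Spearman correlation, leaving out each mouse and, added after seeing the data, T1D mouse 3 as the single T1D library and permutation within the pairs. Values of some single genes are left out of the lists and not reported here.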

Additional observations from a re-analysis of the deposited data

How the results depend on the processing

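With DESeq2 the number of DEGs in Lira against T1D was 1 in place of 0, and it was 0 in all other settings and comparisons run. With T1D mouse 3 as the single T1D library, chosen after seeing the data, the log2 difference of Gpm6b was 0.63 in T1D against NGT and -0.80 in Lira against T1D. With the replicate number as a replicate block, Gpm6b differed by 1.54 and -1.69 and Gpm6a by 1.03 in T1D against NGT (edgeR adjusted p = 0.865), and no call changed. Leaving out each mouse in turn gave 1.32 to 1.92 and -2.08 to -1.48 for Gpm6b in these comparisons and -0.21 to -0.09 in Lira against NGT. For Gpm6a it gave 0.71 to 1.47 in T1D against NGT and -1.86 to -0.89 in Lira against T1D, and limma on log2(FPKM + 1) gave 0.60 and -0.65. Gpm6a in Lira against NGT ran from -0.76 to 0.28, changing sign without NGT mouse 1 or 2 or Lira mouse 1 or 2. The cause was not tested. The other settings kept direction and side of the threshold for Gpm6a. A mouse left out leaves 2 in its group, and the number of genes at an unadjusted p under 0.05 then ran from 225 to 1021, 259 to 740 and 59 to 449 in T1D against NGT, Lira against T1D and Lira against NGT. With 3 mice per group no exact permutation p under 0.1 was possible, or under 0.25 within pairs, and 10 to 85 counts of Gpm6a per library limit what can be seen of it.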
